A study of Canis lupus familiaris with 18 samples.

Results

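Gene expression under a high dose of light was compared with darkness in the parental MDCKI line, dog kidney epithelial cells that here carry no light-activated enzyme. The comparison uses 5 of the 18 libraries of the series, chosen by their labels: the 2 labelled parental high light and the 3 labelled parental control, which are called dark here. All were MDCKI cells without bPAC, grown in 6-well plates in DMEM with 0.5% FCS, GlutaMAX and no phenol red. Illumination began 16 h after plating and lasted 2 h, and the dark cells received no light. The other groups hold parental cells in low light (3 libraries) and MDCKI cells with bPAC in the dark (3), in low light (4) and in high light (3), in the same medium and over the same times. The wavelength, the intensity and whether either line is 1 clone are not stated in the labels. The labels do not say whether replicates are separate cultures, so each p-value is set against a spread that may be technical.

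bPAC is a bacterial adenylyl cyclase with a flavin-binding domain that senses blue light, and it makes cyclic AMP when illuminated. Cyclic AMP releases the catalytic subunits of protein kinase A, which phosphorylate, among other proteins, the transcription factor CREB, and CREB raises a set of early target genes. Parental cells lack the cyclase, so they show what light and its handling do by themselves. Blue light is also absorbed by the cells' own flavins and porphyrins, which can generate reactive oxygen species.

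Genes carry Ensembl dog IDs in the files. The reference table held 0 of these 32220 IDs. Genes are therefore given by ID, the lists of pathway genes could not be used, and the epithelial identity of the cells could not be checked against markers. For the same reason no sequence is printed, and genes that share reads with a near copy cannot be told from others. The dark libraries held 9610144, 3308277 and 4134090 reads assigned to genes, and the high light libraries 3988616 and 4004576. Multiply aligned reads were 44.2% of all reads in high light library 2 (95% Wilson interval 44.2% to 44.3%) and 38.9% in high light library 1 (38.8% to 38.9%). They made up 39.6% to 40.4% in the dark libraries, so high light library 2 stood above the other 4. Its part in the results was not tested beyond leaving it out. Such intervals cover counting error only.

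High light was followed by a change in few genes that could be called with 2 libraries. Of the 8530 genes tested, 15 differed between high light and dark at an adjusted p under 0.05 (edgeR's quasi-likelihood test with Benjamini-Hochberg adjustment), or 0.176% of those tested, and genes that pass this threshold are called below. In high light 12 of them (0.141%) were higher, by 1.98-fold to 10.1-fold with a median of 2.49-fold. The other 3 (0.0352%) were lower, by 2.47-fold to 3.75-fold. The 12 genes together took 604 to 809 CPM (each count divided by its library's TMM-scaled depth) in the dark libraries and 3639 and 2964 CPM in the high light libraries. The 3 genes together took 608 to 880.3 CPM in the dark and 366 and 241 CPM in high light. The median level of the 15 over all libraries was 91.2 CPM, against 18.6 CPM for all tested genes, and 3 of them lay below the latter. The same fit called far more genes between parental low light and the same dark libraries. These were 976 of the 8530, with 577 higher and 399 lower in low light. The median SE on the log2 scale was 0.31 for low light and 0.35 for high light. Why the counts differed was not tested.

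A pair of genes made up 77.7% of the summed rise of the 12. ENSCAFG00000017937 stood at 202, 143 and 226 CPM in the 3 dark libraries and at 1549.6 and 1210.1 CPM in the 2 high light libraries. The high light libraries thus lay far above every dark one and close to each other. The gene rose 7.24-fold (log2 fold change 2.86, SE 0.27, 95% interval 2.29 to 3.42; edgeR adjusted p = 2.03e-05). In parental low light it stood at 692, 736 and 541 CPM, so that no library of 1 dose overlapped with a library of another.

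ENSCAFG00000006164 stood at 120.2, 129 and 127 CPM in the dark and at 1172 and 690.1 CPM in high light. The dark libraries were nearly alike, while high light library 1 exceeded library 2. It rose 7.42-fold (log2 fold change 2.89, SE 0.29, 95% interval 2.29 to 3.49; edgeR adjusted p = 2.03e-05). Its low light libraries, at 234, 246 and 192 CPM, again fell between dark and high light without overlap. Both genes were called under all 25 other settings tried, including the loss of any 1 of the 18 libraries, with an adjusted p of at most 0.000479 for ENSCAFG00000017937 and 0.000633 for ENSCAFG00000006164. They were the only 2 of the 15 to do so.

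**Figure D1:**
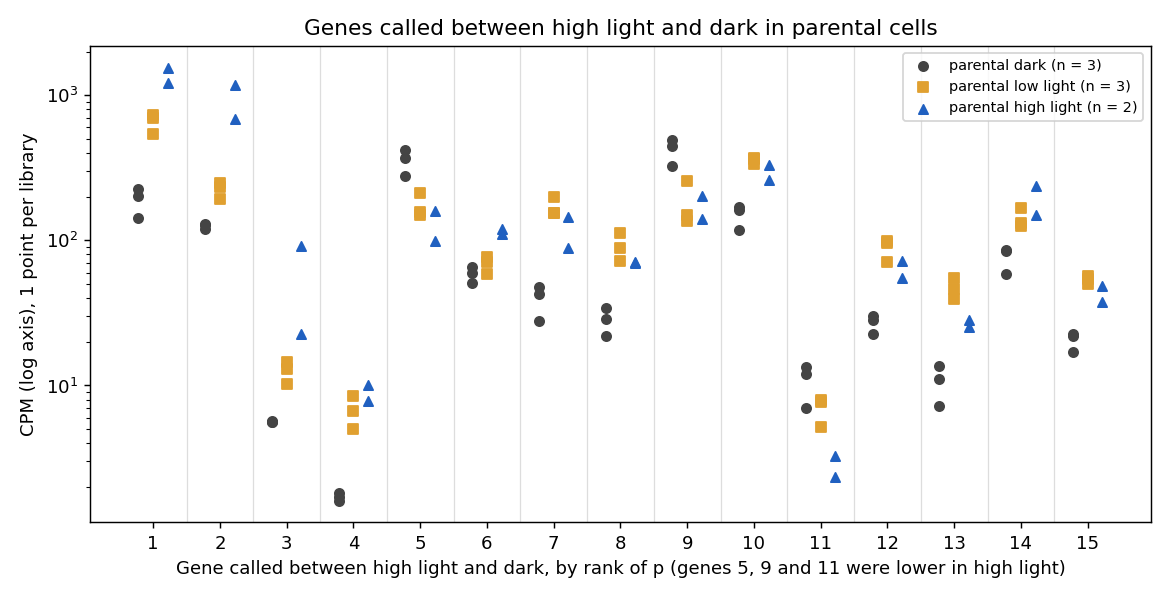
Level of each of the 15 called genes (CPM, log axis) in every parental library, 1 point per library, with genes in order of p along the horizontal axis. Genes 1 and 2 are ENSCAFG00000017937 and ENSCAFG00000006164, whose high light libraries (1549.6 and 1210.1, 1172 and 690.1 CPM) lie above all low light and dark libraries.

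The gene with the largest fold change was much less even. ENSCAFG00000000640, singled out after its values were seen, stood at 5.63, 5.63 and 5.65 CPM in the dark, on 56, 21 and 25 reads. In high light it stood at 22.5 CPM in library 1 and 92.0 CPM in library 2, on 89 and 395 reads. Both were above the dark, but they differed from each other more than the low light libraries, at 12.9, 14.6 and 10.2 CPM, differed among themselves. The fitted change was 10.1-fold (log2 fold change 3.34, SE 0.52; edgeR adjusted p = 0.0142). Without high light library 2, which among the 5 compared had the largest share of multiply aligned reads, it was 1.96 on the log2 scale and was not called, nor was it called without dark library 2 or 3.

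The 3 genes that fell had the same order of libraries in high light, with library 2 below library 1. ENSCAFG00000018917 stood at 277, 367 and 422 CPM in the dark and at 160.2 and 99.0 CPM in high light, without overlap. It fell 2.74-fold (log2 fold change -1.46, SE 0.24; edgeR adjusted p = 0.0218). ENSCAFG00000002628 stood at 323, 495 and 446 CPM in the dark and 202 and 139 CPM in high light, also apart (log2 fold change -1.30, SE 0.25; edgeR adjusted p = 0.0491).

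ENSCAFG00000015499 was the scarcest of the 3, at 6.94, 13.4 and 11.98 CPM in the dark and 3.29 and 2.33 CPM in high light. Those high light values rest on 13 and 10 reads. It fell 3.75-fold (log2 fold change -1.91, SE 0.38; edgeR adjusted p = 0.0491). None of the 3 kept its call without dark library 2 or 3 or without high light library 2.

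The number of called genes depended on single libraries. It was 2 without dark library 2, dark library 3 or high light library 2, 7 without high light library 1, and 26 without dark library 1. A fit of only the 5 libraries compared gave 2, DESeq2 gave 135, with 90 higher and 45 lower, and limma-voom gave 5. All 15 genes kept their direction under all 25 settings. This could hardly turn out otherwise, because for all 15 both high light libraries lay beyond every dark one. At a looser adjusted p under 0.1 edgeR gave 143 genes, and 1284 of the 8530 genes, or 15.1%, had an unadjusted p under 0.05, where 5% would fall there if no gene differed.

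Replicates of 1 group differed widely in single genes. Between the high light libraries 899 genes (10.5%) differed by at least 2-fold in log2 CPM. Between pairs of dark libraries it was 739 to 1210 genes (8.66% to 14.2%). High light library 1 lay outside the range of the 3 dark libraries for 5021 genes (58.9%) and library 2 for 5033 (59.0%). Both were outside on the same side for 2772 genes (32.5%), 1402 above and 1370 below, against 15 called genes, or 0.176% of those tested. Lack of overlap was thus common among tested genes and says little about a gene by itself. They were outside on opposite sides for 682 genes, and only 1 of the libraries was outside for 3146.

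**Figure D2:**
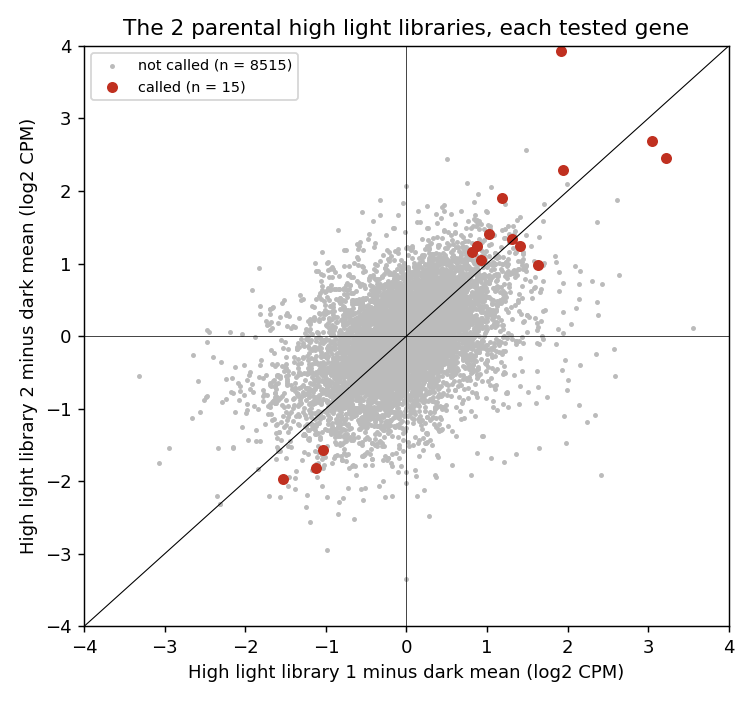
For each of the 8530 tested genes, log2 CPM in high light library 1 (horizontal) and library 2 (vertical) minus the mean of the 3 dark libraries, with the 15 called genes in red and the line of equal change. Called genes lie in the upper right and lower left, where both libraries moved the same way. Of all tested genes, both libraries lay outside the range of the dark libraries on the same side for 2772 and on opposite sides for 682. The 2 axes share the dark mean, which by itself draws points along the line.

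The high light libraries as wholes lay between the dark and the low light ones on the main axis of variation, and not beyond the low dose. Across genes, which are not independent replicates, log2 CPM of high light library 2 correlated with high light library 1 at r = 0.969. High light library 2 correlated with the dark libraries at 0.954 to 0.966 and with the low light libraries at 0.951 to 0.977. High light library 1 correlated with the dark libraries at 0.950 to 0.965 and with the low light libraries at 0.964 to 0.967. On the first principal component of the 8 parental libraries, which held 38.5% of the variance, the dark libraries scored -47.5 to -13.5 and the low light libraries 18.01 to 36.5. The high light libraries scored 4.90 and -1.63, so that the 3 groups did not overlap.

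How large a change the data could have missed was read from the intervals of the fitted fold changes. For 3478 of the 8530 genes (40.8%) the 95% interval lay within 2-fold in either direction, and for 7244 (84.9%) within 4-fold. For the remaining genes a change beyond that size was not excluded at this depth and number of libraries. The share within 2-fold was 23.7% without high light library 1 and 24.8% without library 2. The median interval reached 1.66-fold to either side of the estimate. Estimates of at least 2-fold were found for 262 genes upward and 558 downward, and 13 of these were called.

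Precision followed the level of the gene. Of the 2133 genes at 66.6 CPM or more in the dark, 71.4% had an interval within 2-fold, and 6 were called. Of the 2133 genes at up to 4.88 CPM 2.86% had, 1 was called, and they held 462 of the estimates of at least 2-fold. Of the 50 most abundant genes of dark cells, the lowest at 2202 CPM, 37 had intervals within 2-fold. None of the 50 was called by edgeR or limma-voom and 2 were by DESeq2. As edgeR called only 0.176% of all tested genes, the lack of a call among 50 says little about abundant genes. At an unadjusted edgeR p under 0.05 there were 4 of the 50, against 15.1% of all tested genes.

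**Figure D3:**
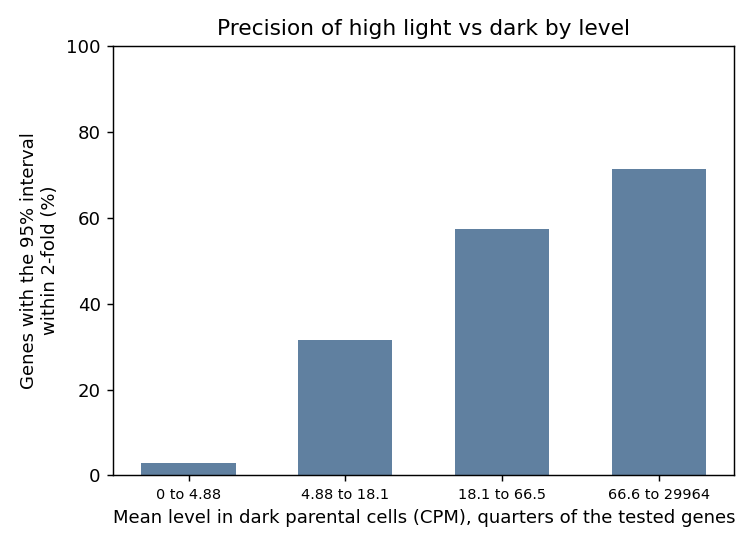
Percent of tested genes (vertical) whose 95% interval of the high light against dark fold change lies within 2-fold either way, for 4 classes of the genes by mean level in dark parental cells (horizontal, CPM). The share climbs from 2.86% in the lowest class to 71.4% in the highest.

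The doses were then compared with each other within parental cells. Between high and low light ENSCAFG00000006164 alone was called (0.0117% of those tested), 4.16-fold higher in high light (log2 fold change 2.05, SE 0.29; edgeR adjusted p = 0.00567). It was not called there without low light library 1 or high light library 1. DESeq2 called 43 genes between the doses, 10 higher and 33 lower in high light, and edgeR with no filter 52, while limma-voom called 1. ENSCAFG00000017937 was 2.10-fold higher in high than in low light, with a 95% interval of 0.51 to 1.64 on the log2 scale, and did not pass (edgeR adjusted p = 0.182). ENSCAFG00000002628, at 256, 137 and 149 CPM in low light, was not called between the doses, with an interval of -0.60 to 0.44 on the log2 scale. Of the 12 raised genes, 6 had a higher mean in low than in high light, a difference that passed for none of them (edgeR adjusted p = 0.246 to 0.594). In low light against dark all 15 genes had the same sign as in high light. Of the 12 raised genes 10 were called higher there, against 577 of all 8530. Of the 3 lowered genes 2 were called lower, against 399 of all. Both comparisons use the same dark libraries, on which the 15 were chosen, so these counts are a description.

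The same genes were read in cells with the cyclase, whose libraries stand on neither side of the parental contrast. They do help to set the spread it was tested against, and 2 of the 15 genes were called with the parental groups alone. It was 5, 5 and 6 genes without bPAC dark library 1, 2 and 3. All 15 were called without bPAC low light library 4 or bPAC high light library 2 or 3. Parental low light libraries mattered as well, with 7, 5 and 5 genes called without library 1, 2 and 3. In bPAC cells under high light, against bPAC cells in the dark, all 15 genes had the same sign as in parental cells. Of the 12 raised genes 11 were called higher in bPAC cells, where 24.6% of all tested genes were called and 12.7% were called higher. Of the 3 lowered genes 1, ENSCAFG00000002628, was called lower, against 11.9% of all genes. The median log2 fold change of the 12 genes was 1.62 in bPAC and 1.31 in parental cells. For all tested genes it was 0.03 and -0.02. The 1 raised gene without a call in bPAC cells was ENSCAFG00000000640, at 5.07, 9.33 and 3.72 CPM in high light (log2 fold change 0.73, 95% interval -0.46 to 1.91).

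The pair of leading genes changed in bPAC cells too. ENSCAFG00000017937 stood at 254, 164 and 148 CPM in dark bPAC cells and at 623, 799.7 and 535 CPM in high light, 3.46-fold higher (edgeR adjusted p = 0.000182). Its bPAC low light libraries, at 788 to 1355.5 CPM with the lowest below the highest high light library, gave 5.58-fold (edgeR adjusted p = 1.34e-05). ENSCAFG00000006164 stood at 202, 225 and 377 CPM in dark and 754, 702 and 1367 CPM in high light bPAC cells, 3.51-fold higher (edgeR adjusted p = 0.000242). Its dark level was thus higher in bPAC than in parental cells, with no overlap between their libraries.

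In bPAC low light 35.3% of all tested genes were called. In that comparison, which shares the dark libraries with bPAC high light, 11 of the 12 raised genes were called higher, against 17.2% of all tested genes, and 1 of the 3 lowered genes was called lower, against 18.1%. The sign was that of parental high light for 13 of the 15, the exceptions being ENSCAFG00000015499 (log2 fold change 0.55, edgeR adjusted p = 0.144) and ENSCAFG00000017642 (-0.01, edgeR adjusted p = 0.963), named after their values were seen. The lines have no library in common, though the model fits 1 spread to both. Over all 8530 genes their high light changes correlated at r = 0.488, given as a description.

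**Figure D4:**
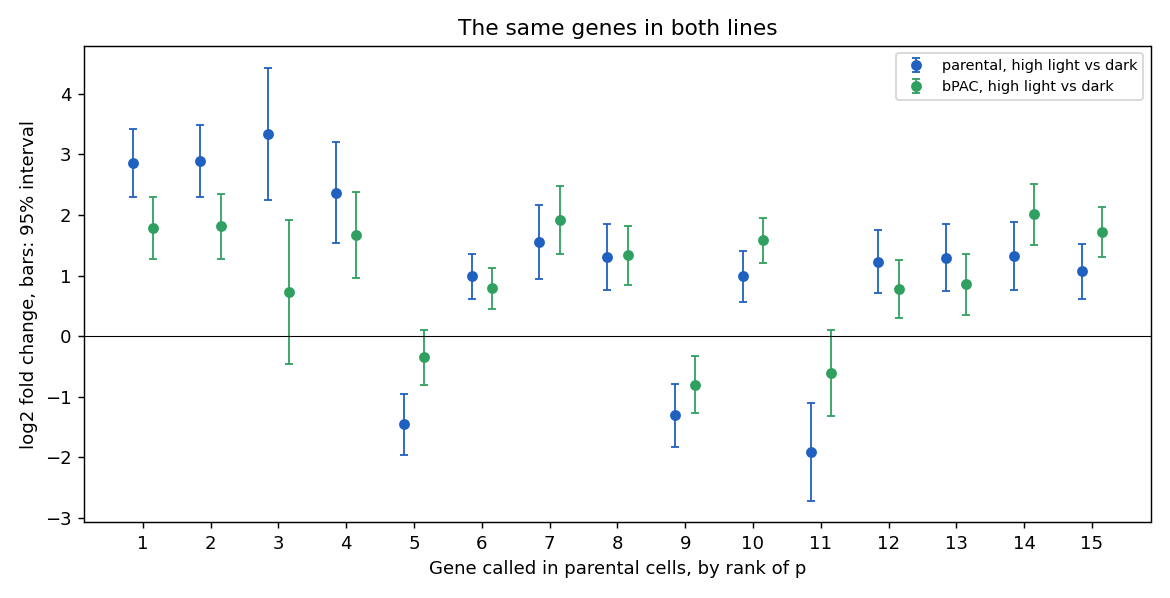
Log2 fold change between high light and dark (vertical, bars are 95% intervals) for the 15 genes called in parental cells, in order of p, in parental cells (blue, 2 against 3 libraries) and in bPAC cells (green, 3 against 3). All 15 pairs lie on the same side of 0, and genes 3, 5 and 11 have bPAC intervals that include 0.

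Differences between the lines were tested with the interaction of line and high light. None of the 15 genes passed it by edgeR or limma-voom and 1 did by DESeq2, where edgeR passed 0.504% of all tested genes. An unadjusted edgeR p under 0.05 was found for 7 of the 15, against 13.9% of all tested genes. The parental values by which the 15 were chosen also enter the interaction, so these counts are a description. For ENSCAFG00000017937 the interaction on the log2 scale was -1.07, a smaller rise in bPAC cells, with a 95% interval of -1.83 to -0.30 (edgeR adjusted p = 0.226). For ENSCAFG00000006164 the interaction was -1.08, with an interval of -1.88 to -0.28 (edgeR adjusted p = 0.243). These do not show that the lines responded alike.

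Over all genes 43 passed the interaction test (0.504% of those tested), 9 (0.106%) with a more positive change in bPAC cells and 34 (0.399%) with a more negative one. All 9 were called higher and all 34 lower by high light in bPAC cells, against 12.7% and 11.9% of all tested genes. In parental cells none of the 43 was called by edgeR or limma-voom and DESeq2 called 1, where edgeR called 0.176% of all tested genes. An unadjusted edgeR p under 0.05 was found there for 7 of the 43, near the 15.1% of all tested genes. In parental cells the median log2 fold change of the 34 genes was 0.27, from -0.54 to 1.13, against -1.78 in bPAC cells. That of the 9 genes was -0.31, from -1.08 to 0.49, against 2.06. The parental interval lay within 2-fold for 22 of the 34 and 5 of the 9. These values entered the interaction and are a description. The count was 17 without bPAC high light library 1 and 84 without parental dark library 1.

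ENSCAFG00000006638 had the smallest p of the 34. It stood at 28.6, 15.6 and 15.4 CPM in dark and 37.7 and 28.2 CPM in high light parental cells, where it was not called and 1 dark library exceeded a high light one (edgeR adjusted p = 0.238). In bPAC cells it fell from 70.2, 75.4 and 82.1 CPM to 14.4, 15.3 and 18.6 CPM (interaction -2.96 on the log2 scale, SE 0.39; edgeR adjusted p = 0.00126). The lines thus differed in the dark already, and under high light the parental libraries were the higher ones.

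ENSCAFG00000030354 stood at 12.9, 10.2 and 9.72 CPM in dark and 17.5 and 17.0 CPM in high light parental cells (edgeR adjusted p = 0.420). In bPAC cells it fell from 20.2, 16.3 and 15.5 CPM to 1.80, 0.849 and 0.827 CPM, on 11, 3 and 2 reads (interaction -4.38, SE 0.60; edgeR adjusted p = 0.00126). In the dark every bPAC library was above every parental one, at means of 17.3 and 10.9 CPM, and in high light the order was reversed.

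ENSCAFG00000029284 led the genes with a more positive change in bPAC cells. It stood at 548, 609 and 624 CPM in dark and 619 and 337 CPM in high light parental cells, which overlapped (95% interval of the log2 fold change -0.75 to 0.13). In bPAC cells it rose from 393, 484 and 483 CPM to 1426, 1424 and 1249.9 CPM (interaction 1.91, SE 0.28; edgeR adjusted p = 0.00415). For this abundant gene a rise of 2-fold in parental cells lay outside the interval.

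ENSCAFG00000016285 stood at 4.83, 7.51 and 5.65 CPM in dark and 2.28 and 3.26 CPM in high light parental cells, a log2 fold change of -1.08 that was not called (edgeR adjusted p = 0.234). In bPAC cells it rose from 2.34, 0.679 and 1.57 CPM, on 11, 2 and 6 reads, to 8.99, 9.33 and 13.2 CPM (interaction 3.74, SE 0.60; edgeR adjusted p = 0.00429). The libraries of the groups did not overlap in either line.

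**Figure D5:**
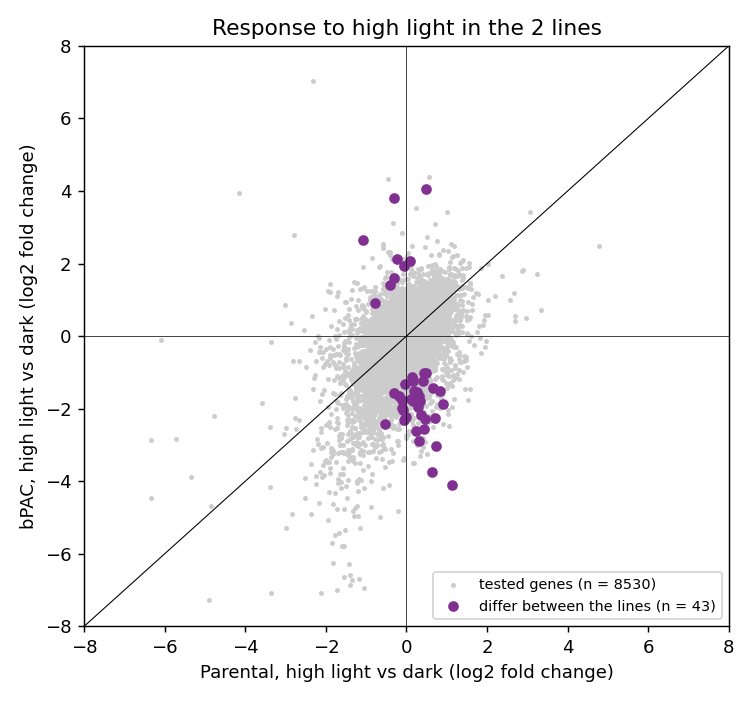
Log2 fold change between high light and dark for each of the 8530 tested genes in parental cells (horizontal) and bPAC cells (vertical), with the 43 genes that passed the interaction test in purple and the line of equal change. The purple genes spread from -4.12 to 4.05 in bPAC cells and from -1.08 to 1.13 in parental cells.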

How the data were processed

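The labels' protocols name Lexogen's SPLIT kit for RNA and QuantSeq 3' FWD for the libraries, so a count reflects transcript 3' ends and does not scale with length. The submitters' processing notes name the build CanFam3.1. No aligner, counter or annotation release is named in the labels. The authors deposited whole-number read counts per gene, not normalised. The 5 rows without a gene stayed out of sizes and tests (67.3% to 70.6% of reads in the 5 libraries).

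All 18 libraries entered 1 edgeR 4.0.16 model of 6 groups (R 4.3.3; filterByExpr, TMM, robust glmQLFit, glmQLFTest, Benjamini-Hochberg at 0.05). Folds are edgeR's; SEs and 95% intervals are Wald values with the posterior quasi-dispersion. Log2 CPM used a prior count of 2. Chi-square per degree of freedom between replicates of the parental groups was 11.1 to 40.2, so none agreed within sampling noise. Scripts were tested on simulated data.

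Members, lists and tests were chosen with earlier results of these data known. Without symbols, named genes were the 2 per direction with the smallest p and no overlap between libraries in high light against dark, 2 per direction for the other results, and lists of up to 5. Alternatives were DESeq2 1.42.0 and its size factors, limma-voom (limma 3.58.1), other filters, fewer groups and leaving out each library.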

Additional observations from a re-analysis of the deposited data

Results flagged for a closer look

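The response to high light differed between the lines for 43 genes by the interaction test (edgeR, adjusted p under 0.05). The named ones had interactions on the log2 scale of 1.91 (ENSCAFG00000029284), 3.74 (ENSCAFG00000016285), -2.96 (ENSCAFG00000006638) and -4.38 (ENSCAFG00000030354), positive where the change was more positive in bPAC cells.

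Reads counted as ambiguous, which the comparisons do not use, were more frequent in both parental high light libraries than in every parental dark library. Of gene and ambiguous reads together they made up 0.0451% (95% Wilson interval 0.0431% to 0.0472%) and 0.0515% (0.0493% to 0.0537%) in high light, against 0.0329% to 0.0404% in the dark. This was not particular to parental high light. The parental low light libraries were higher still, at 0.0528% to 0.0604%. In bPAC cells the share was 0.0352% to 0.0411% in the dark, 0.0474% to 0.0580% in low light and 0.0437% to 0.0584% in high light. Their part in the results was not tested.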

How the results depend on the processing

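The 15 genes called between high light and dark in parental cells became 7 with DESeq2's size factors, 135 with the DESeq2 test, 5 with limma-voom, 227 with no filter, 6 with a minimum mean of 5 CPM, and 2 with only the groups compared or only the parental groups. All 227 passed the filter. Leaving out 1 library gave 2 to 37, and moved the count by over 1.5 times for 17 of the 18 libraries, the exception being bPAC high light replicate 3. The 1 gene between high and low light became 43 with DESeq2 and 52 with no filter, and 0 to 3 without 1 library. The 43 interaction genes became 102 with DESeq2 and 329 with no filter, and 17 to 84 without 1 library. The 4 named interaction genes were called in all 24 alternatives run. The causes were not tested. Of the 15 genes, 10 to 12 were called the same way in bPAC high light throughout. Genes with an interval within 2-fold made up 22.4% to 53.3% of those tested. No paired analysis was possible because the labels give no replicate numbers. Low counts limit precision, as given by level above.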
